A study of Rattus norvegicus with 10 samples.

Results

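The genes described here are 34 endothelial and angiogenesis genes, read in mammary tumours of female Sprague-Dawley rats that had been given 100 mg/kg of the carcinogen DMBA by mouth. The list held 30 blood vessel genes and 4 lymphatic genes, and each gene was read from the probe set annotated to it alone that had the highest mean over all 10 arrays. By this rule 32 of the 34 genes had a probe set, of 14217 genes that had one. Cdh5 (VE-cadherin) and Robo4 had none listed in the annotation used and were not analysed here. The 5 tumours (31D3, 32D1, 37I1, 50I1 and 52I4) were each sampled as the total tumour, taken at 19 weeks, and earlier as a needle biopsy, taken at 12 weeks when the tumour measured 2 cm3. The biopsy was a piece of 0.7 cm by 2.5 mm. The total tumours and the biopsies differed in age and in moment and, by the sample labels, in the amount of tissue sampled. The series text describes the late sample as a needle sample too, so the difference in amount is not settled. All 10 samples carried the same DMBA treatment and no other, and the tumours were graded II by histology. Whether each tumour grew in a rat of its own is not given in the labels, so a p-value covers only the variation among these 5 tumours.

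Endothelial cells line blood and lymphatic vessels. Growing tumours recruit new vessels from existing ones when VEGF ligands bind the receptors Kdr and Flt1 on endothelial cells, and angiopoietins acting on the receptor Tek (Tie2) loosen or stabilise the vessels so formed. Lymphatic endothelium is set apart by the transcription factor Prox1, the VEGF-C receptor Flt4, the hyaluronan receptor Lyve1 and podoplanin (Pdpn), although tissue macrophages also make Lyve1 and fibroblasts and myoepithelial cells also make podoplanin.

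All values are log2 signals normalized by RMA by the authors, so a difference of 1 is 2-fold, and differences are total tumour minus biopsy. Values of the 5 tumours are given in the order 31D3, 32D1, 37I1, 50I1 and 52I4. The median of all probe sets lay between 5.99 and 6.12 on every array, and any pair of arrays correlated at 0.952 to 0.989 over all probe sets. Probe sets with a mean at or under 5.15, the dimmest 40%, were left out of the test, which was limma with the tumour as a block and Benjamini-Hochberg adjustment over 18625 probe sets. No probe set passed an adjusted p of 0.05 (1133 had an unadjusted p under 0.05, and the lowest adjusted p was 0.642). The means of 10 epithelial genes lay at 11.75 to 12.16 in the total tumours and 11.60 to 12.00 in the biopsies, so markers of the labelled tissue were present. The array numbers in the labels run on within each group, so group, age and any batch cannot be told apart.

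The 28 blood vessel genes were higher in the total tumour than in the biopsy in 3 tumours and lower in the other 2, by a similar amount. Their mean was 7.15, 6.33, 6.82, 6.24 and 7.06 (mean 6.72 ± 0.42, SD, n = 5) in the total tumours, against 6.50, 6.87, 6.19, 6.96 and 6.31 (mean 6.57 ± 0.34, SD, n = 5) in the biopsies. The difference was 0.65, -0.55, 0.63, -0.73 and 0.75, which averages 0.15 (SE 0.32, n = 5 tumours). The total tumours of 32D1 and 50I1 had the lowest blood vessel means of their group, and the biopsies of these same tumours had the highest means of theirs. In bulk samples, fewer endothelial cells and less RNA per endothelial cell cannot be told apart.

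**Figure D1:**
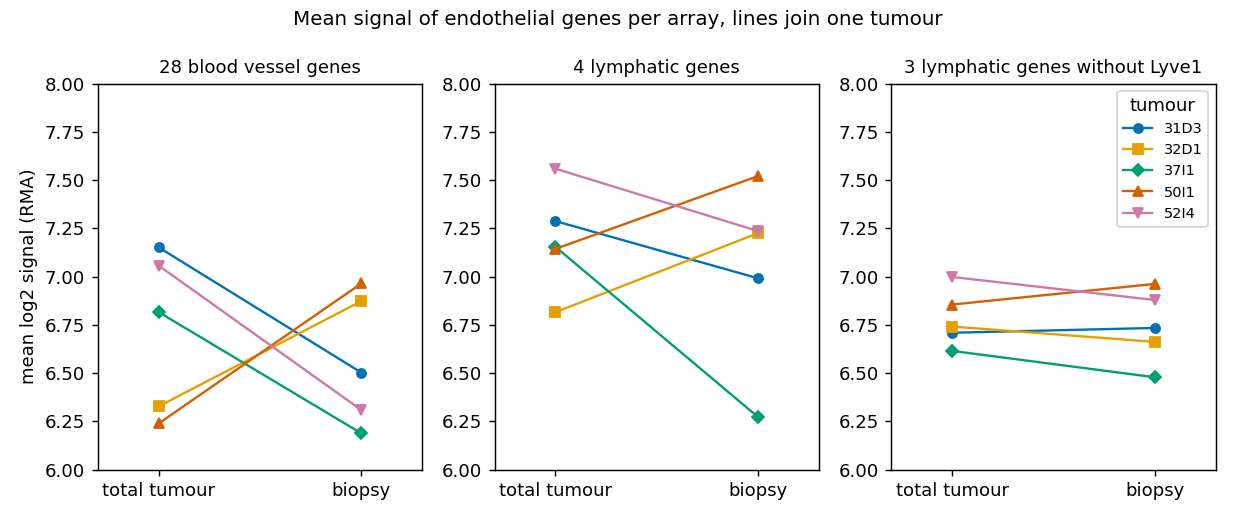
Mean log2 signal (RMA) of the 28 blood vessel genes, the 4 lymphatic genes and the 3 lymphatic genes other than Lyve1 in each of 10 arrays, total tumours left and biopsies right, with a line for each of the 5 tumours. Lines of the blood vessel genes cross: 31D3, 37I1 and 52I4 were higher in the total tumour and 32D1 and 50I1 lower, while the lines without Lyve1 are nearly flat, with differences between -0.11 and 0.14.

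The opposite directions were shared by most of the genes. Of the 32 genes, 27 were higher in the total tumour of 31D3, 4 in that of 32D1, 25 in that of 37I1, 4 in that of 50I1 and 28 in that of 52I4. Over all 10793 genes tested the share that was higher stayed between 48.6% and 50.4% in each tumour. The 25 members above the signal limit had median differences of 0.55, -0.42, 0.62, -0.61 and 0.82, and all genes had medians between -0.01 and 0.00. Of these 25, 14 were higher in 31D3, 37I1 and 52I4 and lower in both 32D1 and 50I1, against 6.7% of all genes tested, a pattern chosen after the values were seen.

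Differences past 2-fold followed the same split. In 31D3, 7 of the 25 members were more than 2-fold higher in the total tumour (5.9% of all genes) and 0 were more than 2-fold lower (3.41%). In 32D1, 0 were higher (1.44%) and 3 lower (1.67%). The counts in 37I1 were 6 higher (6.51%) and 0 lower (1.11%). In 50I1 a single member, Esm1, was higher (1.25%) and 8 were lower (5.08%), and in 52I4 10 were higher (3.01%) and 0 lower (2.68%). At 1.5-fold the counts were 12 higher (12.9%) and 0 lower (11.1%) in 31D3, 0 higher (5.0%) and 9 lower (7.4%) in 32D1, and 13 higher (12.2%) and 0 lower (4.65%) in 37I1. They were 1 higher (4.98%) and 13 lower (9.15%) in 50I1, and 18 higher (7.95%) and 1 lower (7.97%) in 52I4. The members that passed 2-fold in at least 3 tumours were Cldn5, Emcn, Plvap, Vcam1 and Lyve1. The share of all genes that did so is not given here, so this is not read as a trait of the members.

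Averaged over the tumours, the opposing directions left small differences. Of the 25 members tested, 20 had a higher mean in total tumours, against 51.2% of all genes, with a median difference of 0.17, against 0.0039 for all genes. Among all 32 members, 25 were higher on average and 7 lower, between -0.29 (Sele) and 0.49 (Angpt2). Leaving out 1 tumour turned the sign of this mean difference for 16 of the 25. The share of all genes that turned is not given here, so this count is not read as a trait of the members. None of the 25 passed an adjusted p of 0.05 by limma (0% of all genes), the adjusted p running from 0.680 to 0.995. By unadjusted p under 0.05, 1 member was higher, Angpt2 (1.61% of all genes), and 0 were lower (2.56%). The arrays of the total tumours and of the biopsies overlapped for all 32 members, while they did not overlap for 0.417% of all genes tested. The spread between tumours was wide: the median SD of the members was 0.53 in total tumours and 0.50 in biopsies, against 0.22 and 0.25 for all genes. The SD was larger among the biopsies for 11 of the 25, against 59.2% of all genes.

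**Figure D2:**
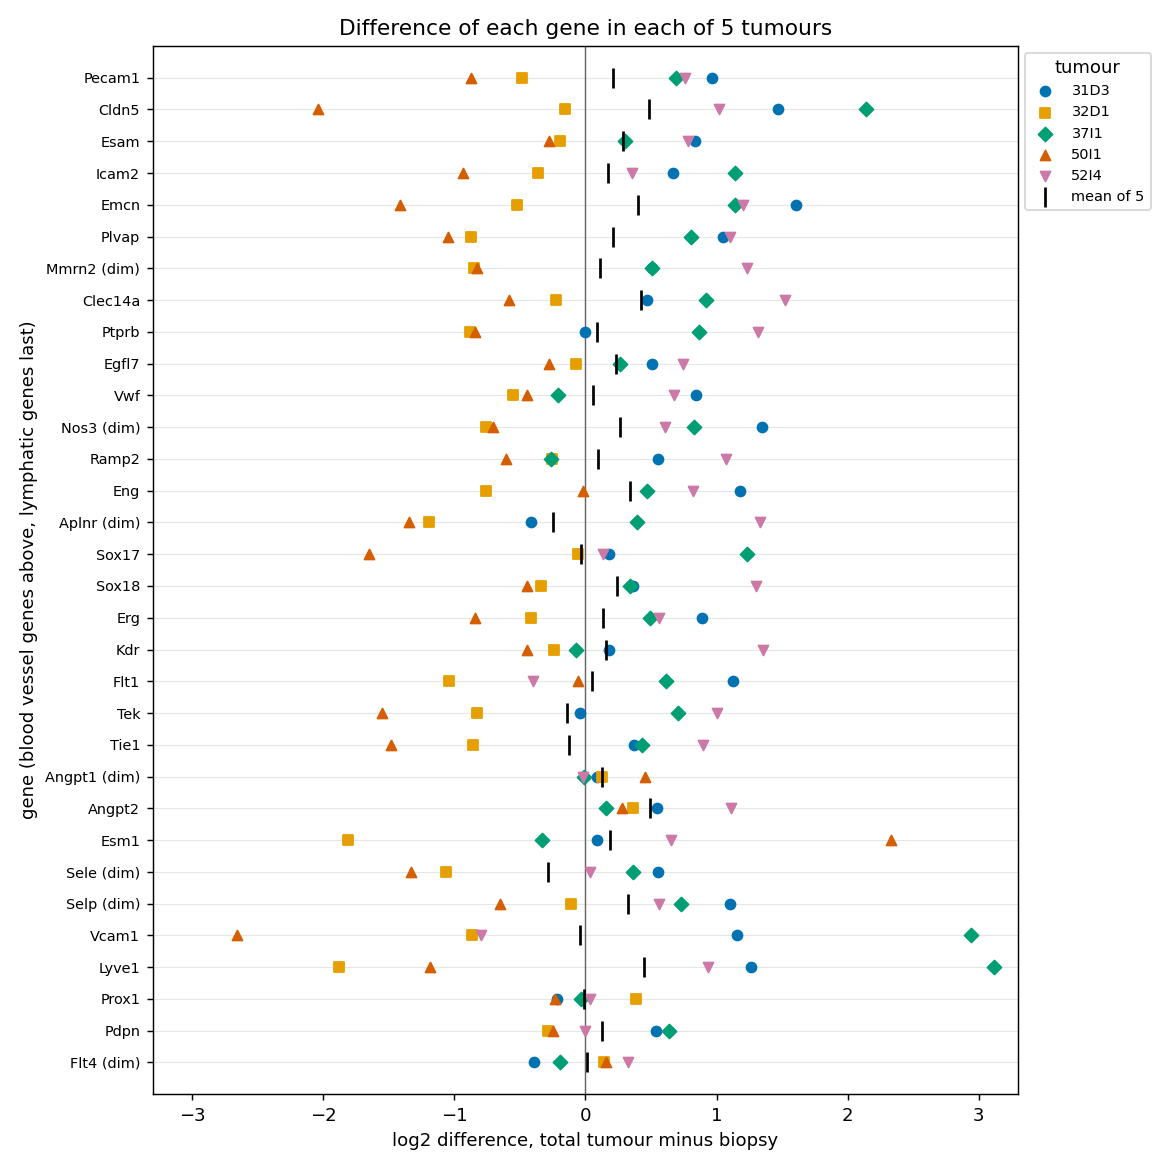
Log2 difference, total tumour minus biopsy, of each of the 32 genes in each of the 5 tumours (coloured marks) with the mean of the 5 (black bar); "dim" marks the 7 genes left out of the test. Marks of 32D1 and 50I1 lie left of 0 for most blood vessel genes and those of the other tumours right of it, while Angpt2 lies right of 0 in all 5 tumours and Esm1 of 50I1 stands far to the right at 2.33.

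Promoter sequences of 4 members follow, 250 bases before to 50 after the start, from RefSeq on GRCr8. Emcn and Tie1 are shown as genes that had the shared directions in all 5 tumours, Vcam1 for its wide differences and Esm1 for its departure from the shared directions. Capitals mark matches on either strand. The motifs searched were AGGAAG, a core of sites that ETS transcription factors bind, GGGATTTCC, a site bound by NF-kB, and the TATA box as the letters TATAAA.
Emcn (chr2:228564289-228564588, plus strand): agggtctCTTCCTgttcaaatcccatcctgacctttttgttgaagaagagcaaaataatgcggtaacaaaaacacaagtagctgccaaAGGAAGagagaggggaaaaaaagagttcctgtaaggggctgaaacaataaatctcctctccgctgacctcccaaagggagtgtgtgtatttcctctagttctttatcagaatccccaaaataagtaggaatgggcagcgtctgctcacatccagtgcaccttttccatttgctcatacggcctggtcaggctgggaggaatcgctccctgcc
Tie1 (chr5:137304932-137305231, minus strand): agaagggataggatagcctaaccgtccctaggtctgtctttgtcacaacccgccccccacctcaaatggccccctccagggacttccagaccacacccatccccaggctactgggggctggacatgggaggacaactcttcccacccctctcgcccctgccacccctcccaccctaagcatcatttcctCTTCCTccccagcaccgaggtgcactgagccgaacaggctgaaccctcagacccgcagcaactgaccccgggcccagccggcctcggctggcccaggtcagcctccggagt
Vcam1 (chr2:206742734-206743033, minus strand): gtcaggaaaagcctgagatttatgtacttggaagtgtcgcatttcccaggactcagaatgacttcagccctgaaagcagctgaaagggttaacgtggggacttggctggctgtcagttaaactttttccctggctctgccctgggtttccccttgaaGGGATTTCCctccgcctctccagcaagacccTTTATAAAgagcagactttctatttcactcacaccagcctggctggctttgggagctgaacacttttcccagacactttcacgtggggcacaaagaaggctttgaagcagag
Esm1 (chr2:46609003-46609302, plus strand): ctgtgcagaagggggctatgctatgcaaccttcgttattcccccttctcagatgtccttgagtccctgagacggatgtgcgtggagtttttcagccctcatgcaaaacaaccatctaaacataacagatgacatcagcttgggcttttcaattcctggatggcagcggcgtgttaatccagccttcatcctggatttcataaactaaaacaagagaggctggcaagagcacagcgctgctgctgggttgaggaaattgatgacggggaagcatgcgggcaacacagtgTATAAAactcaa
The Emcn window held 2 matches to AGGAAG and the Tie1 window 1. Vcam1 held the GGGATTTCC match and TATAAA on both strands, in matches that overlap each other. Esm1 held 1 TATAAA close to the end of its window, within the 50 bases after the start and not before it. Promoters of 19 of the 34 members were in the table. AGGAAG was in 13 of these 19, against 34.5% of all 33469 promoters, and ACAAAG (a core of SOX sites, not marked above) in 5, against 18.8%. TATAAA was in 5, against 14.2%, and GGGATTTCC in Vcam1 alone, against 0.326%. A match describes letters and is not a measured site.

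Vessel surface and junction genes had nearly uniform directions within each tumour. Of 15 with a probe set, 13 were higher in the total tumour of 31D3, 0 in 32D1, 13 in 37I1, 0 in 50I1 and 15 in 52I4, and their mean difference was 0.21 (SE 0.37). Pecam1 (CD31), the adhesion molecule most used to stain vessels, had 8.20, 7.14, 7.40, 6.91 and 7.42 in the total tumours, against 7.23, 7.63, 6.71, 7.78 and 6.66 in the biopsies. Its total tumours of 32D1 and 50I1 were the lowest and its biopsies of these tumours the highest of their groups, and the mean difference was 0.21 (SE 0.30, adjusted p 0.939 by limma). Esam, an endothelial tight-junction molecule, had 8.45, 7.82, 7.88, 7.62 and 7.98 in the total tumours, against 7.62, 8.01, 7.58, 7.90 and 7.20 in the biopsies. Its groups overlapped, and the mean difference was 0.29 (SE 0.20, adjusted p 0.873 by limma).

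Egfl7, a protein that endothelial cells secrete into their matrix, had 7.96, 7.61, 7.78, 7.37 and 7.86 in the total tumours, against 7.45, 7.69, 7.52, 7.65 and 7.11 in the biopsies. The differences ran from -0.28 in 50I1 to 0.75 in 52I4 and averaged 0.23 (SE 0.17, adjusted p 0.873 by limma). Clec14a, a lectin of tumour vessels, had 6.36, 5.61, 5.98, 5.22 and 7.61 in the total tumours, against 5.89, 5.83, 5.06, 5.80 and 6.09 in the biopsies. The total tumour of 52I4 stood above all other arrays and the biopsy of 37I1 below them, and the mean difference was 0.42 (SE 0.31, adjusted p 0.878 by limma). Eng (endoglin), a co-receptor for TGF-beta family ligands, had 8.37, 6.95, 8.04, 7.67 and 7.91 in the total tumours, against 7.19, 7.70, 7.57, 7.69 and 7.09 in the biopsies. Its difference in 50I1, -0.02, was close to 0, unlike that of most surface genes, and the mean was 0.34 (SE 0.28, adjusted p 0.884 by limma).

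Vwf, the clotting factor carried in endothelial storage granules, had 8.08, 7.56, 7.96, 7.86 and 7.87 in the total tumours, against 7.24, 8.12, 8.17, 8.31 and 7.19 in the biopsies. The total tumours lay close together (SD 0.19) and the biopsies further apart (SD 0.55), and the mean difference was 0.06 (SE 0.24, adjusted p 0.980 by limma). In the endothelial junction gene Cldn5 the differences were among the widest, 1.47, -0.16, 2.14, -2.04 and 1.02, around a mean of 0.49 (SE 0.58). Emcn (endomucin), a mucin of capillaries and veins, differed by 1.61, -0.52, 1.14, -1.41 and 1.20, with a mean of 0.40 (SE 0.47). Neither gene passed the test (adjusted p 0.922 for both, by limma). Icam2 (an adhesion molecule for leukocytes), Plvap (the protein of endothelial diaphragms), Ptprb (the phosphatase VE-PTP) and Ramp2 (part of the adrenomedullin receptor) averaged 0.17, 0.21, 0.09 and 0.10. The dim surface genes were 3: Mmrn2 averaged 5.05 in total tumours and 4.94 in biopsies, Nos3 (endothelial nitric oxide synthase) 4.53 and 4.26, and Aplnr (the apelin receptor) 4.95 and 5.19.

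The 3 transcription factors listed, which specify endothelium, had the same directions in each tumour as the surface genes. Sox18 had 7.04, 6.76, 6.85, 6.98 and 7.77 in the total tumours, against 6.69, 7.10, 6.50, 7.43 and 6.47 in the biopsies. The total tumour of 52I4 stood above the others, and the mean difference was 0.24 (SE 0.26, adjusted p 0.917 by limma). Erg, an ETS factor of mature endothelium, differed by 0.89, -0.42, 0.49, -0.85 and 0.56. Sox17, a factor of arterial endothelium, differed by 0.18, -0.06, 1.23, -1.65 and 0.14, the widest being in 37I1 and 50I1. Their means were 0.14 (SE 0.27) for Erg and -0.03 (SE 0.37) for Sox17, which turned to 0.0008 once array medians were subtracted. The probe sets of Sox17, Flt1, Selp and Prox1 differed in sign within each gene.

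Of the 7 growth-factor receptors, angiopoietins and Esm1, 6 were higher in the total tumour of 31D3, 2 in 32D1, 4 in 37I1, 3 in 50I1 and 5 in 52I4. Kdr (VEGFR2), the main signalling receptor for VEGF-A, had 7.47, 7.83, 7.32, 7.34 and 8.10 in the total tumours, against 7.29, 8.07, 7.39, 7.78 and 6.75 in the biopsies. Only in 52I4 was its difference, 1.35, past 2-fold, and the mean was 0.15 (SE 0.26, adjusted p 0.946 by limma). Flt1 (VEGFR1), which also acts as a decoy for VEGF-A, had 8.61, 8.35, 8.31, 7.85 and 8.20 in the total tumours, against 7.49, 9.39, 7.69, 7.90 and 8.60 in the biopsies. The biopsy of 32D1 was the highest array and 52I4 was lower in the total tumour, and the mean was 0.05 (SE 0.31, adjusted p 0.986 by limma), or -0.11 over all its probe sets.

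Tek, the angiopoietin receptor, had 7.06, 6.12, 7.20, 5.74 and 7.80 in the total tumours, against 7.10, 6.95, 6.49, 7.30 and 6.80 in the biopsies. The total tumours spread widely (SD 0.84) around a biopsy group that lay close together (SD 0.31), and the mean difference was -0.14 (SE 0.38, adjusted p 0.970 by limma). Its partner Tie1 differed by 0.37, -0.86, 0.43, -1.48 and 0.90, with a mean of -0.13 (SE 0.36).

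Angpt2 was the one member higher in the total tumour of all 5 tumours, which 2.41% of all genes tested were. It encodes angiopoietin-2, which endothelial cells release at sites of vessel remodelling and which can block Tek signalling. Its signal was 7.98, 7.57, 7.56, 7.97 and 8.51 in the total tumours, against 7.43, 7.20, 7.40, 7.69 and 7.39 in the biopsies. The difference was largest in 52I4 at 1.11 and smallest in 37I1 at 0.16, and total tumours of 32D1 and 37I1 lay below the biopsy of 50I1, so the groups overlapped. The mean difference was 0.49 (SE 0.15), a fold of 1.40, with an unadjusted p of 0.0173 and an adjusted p of 0.680 by limma. An exact permutation test that turned the signs of the 5 differences gave a two-sided p of 0.0625, the smallest that 5 pairs allow. Angpt1, which activates Tek, was dim, at 3.41 to 3.99 in total tumours and 3.43 to 3.63 in biopsies.

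Esm1 (endocan), a proteoglycan of endothelial tip cells, departed furthest from the other vessel genes. It had 6.35, 5.25, 7.80, 8.35 and 6.19 in the total tumours, against 6.26, 7.06, 8.13, 6.02 and 5.54 in the biopsies. In 50I1 it was 2.33 higher in the total tumour while 25 of the 28 blood vessel genes were lower there (Angpt1 and Angpt2 were the others higher), a gap of 3.17 to the mean of the rest, and in 32D1 it was 1.81 lower. The mean difference was 0.19 (SE 0.54, adjusted p 0.972 by limma). Of 7 secreted ligands measured, counted after their values were seen, 3 were higher in the total tumour of 50I1 (Apln at 2.87, Pgf at 0.75 and Vegfa at 0.59) and 4 lower, between -0.86 (Adm) and -0.17 (Vegfc). In the other tumours 6 of the 7 were higher in 31D3, 1 in 32D1, 7 in 37I1 and 5 in 52I4. A link between these ligands and Esm1 was not tested.

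Adhesion molecules that activated endothelium shows to leukocytes had no common direction in 52I4 but otherwise followed the split. Vcam1 had 8.64, 6.75, 7.20, 5.08 and 6.74 in the total tumours, against 7.49, 7.61, 4.26, 7.74 and 7.53 in the biopsies. The biopsy of 37I1 lay about 3 log2 units below the other biopsies, and the differences, 1.16, -0.86, 2.94, -2.66 and -0.79, averaged -0.04 (SE 0.76, adjusted p 0.995 by limma) and 0.0148 after quantile normalization. Sele (E-selectin) was dim, with 3.84, 3.40, 3.47, 3.03 and 3.48 in the total tumours, against 3.28, 4.47, 3.11, 4.37 and 3.44 in the biopsies. Selp (P-selectin) was dim too, at 4.04 to 5.18 in total tumours and 4.04 to 4.74 in biopsies. Sele averaged -0.29 and Selp 0.33, and neither entered the test.

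**Figure D3:**
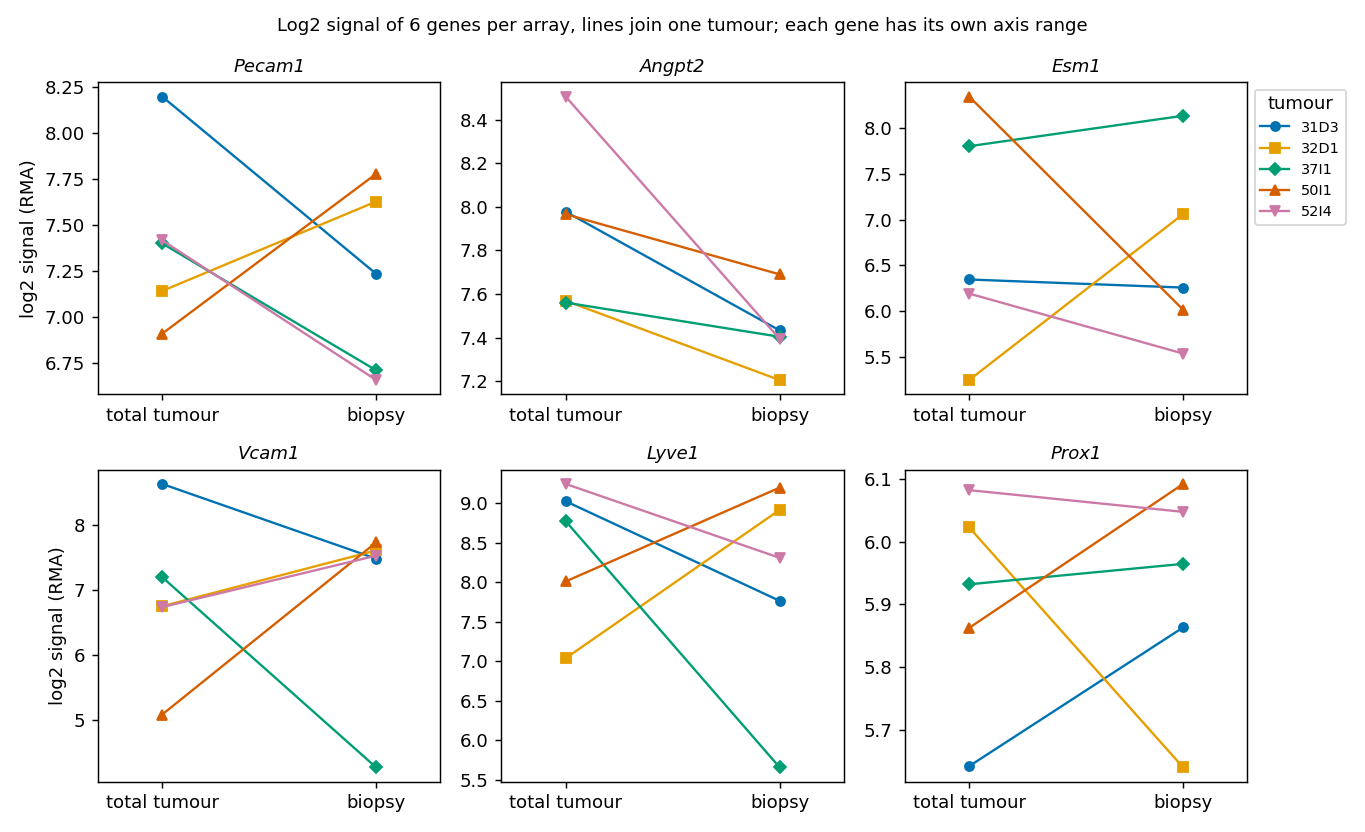
Log2 signal (RMA) of 6 genes in each array, total tumours left and biopsies right, with a line for each of the 5 tumours and an axis range of its own for each gene. Pecam1 crosses like the blood vessel mean, all 5 Angpt2 lines slope the same way, Esm1 of 50I1 climbs to 8.35 in the total tumour, Vcam1 and Lyve1 of 37I1 start low in the biopsy, and Prox1 stays between 5.64 and 6.09.

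The 4 lymphatic genes averaged 7.29, 6.82, 7.15, 7.14 and 7.56 in the total tumours, against 6.99, 7.23, 6.27, 7.52 and 7.24 in the biopsies. Their differences were 0.30, -0.41, 0.88, -0.38 and 0.32, with a mean of 0.14 (SE 0.24), beside 0.15 (SE 0.32) for the blood vessel genes. Both means had the same sign in every tumour. The likeness of the means rested largely on Lyve1, since the other 3 genes together differed by -0.02, 0.08, 0.14, -0.11 and 0.12, a mean of 0.04 (SE 0.05). Of these 3, Flt4 was dim and Prox1 had a low signal, with a mean of 5.915 over all arrays. Pdpn, the brightest at 10.07, had the sign of the blood vessel mean in 4 tumours, all but 52I4. The difference between the blood vessel and the lymphatic means was not tested.

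Lyve1 had 9.02, 7.04, 8.77, 8.01 and 9.24 in the total tumours, against 7.76, 8.92, 5.65, 9.20 and 8.31 in the biopsies. The biopsy of 37I1 was lowest, more than 2 log2 units below the other biopsies, and the differences of 1.26, -1.88, 3.12, -1.19 and 0.94 averaged 0.45 (SE 0.71, adjusted p 0.940 by limma). A second Lyve1 probe set differed by 1.04, -2.32, 2.49, -1.58 and 0.80. Prox1 had 5.64, 6.02, 5.93, 5.86 and 6.08 in the total tumours, against 5.86, 5.64, 5.96, 6.09 and 6.05 in the biopsies. All 10 values lay between 5.64 and 6.09, and the mean difference was -0.01 (SE 0.12, adjusted p 0.991 by limma), with the opposite sign after median subtraction or quantile normalization.

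Pdpn had 10.52, 9.71, 9.57, 10.35 and 10.54 in the total tumours, against 9.98, 9.99, 8.93, 10.60 and 10.54 in the biopsies. It was higher in the total tumours of 31D3 and 37I1, lower in those of 32D1 and 50I1 and level in 52I4, with a mean of 0.13 (SE 0.17, adjusted p 0.937 by limma). Flt4 was dim, with 3.96, 4.50, 4.34, 4.35 and 4.37 in the total tumours, against 4.36, 4.35, 4.54, 4.20 and 4.05 in the biopsies, and did not enter the test. Its sign matched that of the blood vessel genes in 1 tumour, as did Angpt1's, and Prox1's in 2. Across all 32 members the sign matched that of the other blood vessel genes' mean in all 5 tumours for 18 members. It matched in 4 tumours for 9 members and in 3 for Angpt2 and Esm1. The 18 include the dim Mmrn2, Nos3, Sele and Selp. Over all genes tested, 6.7% had these directions in all 5 tumours, and the shares for fewer tumours are not given. The mean came from the same list, so these counts are a description and not a test.

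The mean of endothelial genes outside the 34 had the same sign in each tumour, though not every gene did. Of 26 symbols listed, 23 had a probe set, and their mean differed by 0.49, -0.44, 0.58, -0.61 and 0.36. Higher in the total tumour were 18 of the 23 in 31D3, 6 in 32D1, 16 in 37I1, 4 in 50I1 and 17 in 52I4. Of the 22 tested, 14 had a higher mean in total tumours and 8 a lower one, with 0 at an unadjusted p under 0.05. A further list held 22 genes of VEGF, Notch and other vessel signalling, among them Apln, Adm, Ephb4 and Thbs2, and 20 had a probe set. Of 19 tested, 13 were higher, 6 lower and 0 had an unadjusted p under 0.05. Their mean differed by 0.54, -0.46, 0.35, -0.14 and 0.36. Vegfa itself, the main angiogenic ligand, differed by 0.87, -0.66, 0.24, 0.59 and -1.73, with a mean of -0.14 (SE 0.38), so its sign was opposite to that of the vessel genes in 50I1 and 52I4.

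Markers of connective tissue and macrophages differed beside the vessel genes. The 10 fibroblast genes, all above the signal limit, averaged 9.94 to 11.45 in total tumours and 7.79 to 11.24 in biopsies. Their differences were 0.95, -0.35, 2.45, -1.30 and 1.55, with the sign of the blood vessel mean in all 5 tumours. All 10 had a higher mean in total tumours, 1 of them at an unadjusted p under 0.05 (Fbln1, fibulin-1, 1.07, SE 0.31). The 10 macrophage genes, also all above the limit, averaged 8.63 to 10.40 in total tumours and 8.13 to 10.20 in biopsies, and their differences of 0.73, -0.36, 1.75, -1.57 and -0.47 had that sign in 4. Biopsy 37I1 was the lowest of the 5 biopsies for blood vessel, lymphatic, fibroblast and macrophage means alike. The part of these cells in the vessel results was not tested.

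Pericyte and smooth muscle genes mark the cells around vessels, but myoepithelial cells also express some of them, so their mean is not of vessel cells alone. Such genes did not share the pattern on average, though single genes did. The mean of 11 such genes lay at 8.02 to 8.47 in total tumours and 8.23 to 8.78 in biopsies, and it differed by -0.11, -0.23, -0.58, -0.07 and -0.0004. Pdgfrb, the PDGF receptor of pericytes, had the sign of the blood vessel mean in all 5 tumours, with 0.49, -0.51, 0.66, -1.04 and 0.46, and Rgs5 and Des had it in 4, as seen after the values were known. The other 8 had it in 0 to 3 tumours. Of 10 tested, 2 had an unadjusted p under 0.05, Tagln at -0.38 (SE 0.09) and Acta2 at -0.44 (SE 0.17), which myoepithelial cells also express. The 6 platelet genes, of which 1 was above the limit, differed by 0.14, 0.15, -0.04, 0.11 and 0.28. Epithelial genes differed by -0.12, 0.30, -0.12, 0.28 and 0.18, opposite in sign to the blood vessel mean in 4 tumours, and Krt8 had an unadjusted p under 0.05 at 0.37 (SE 0.14). Of 9 red cell genes listed, 4 had a probe set, and these averaged 0.61 (SE 0.29). Among them Ahsp averaged 0.83 (SE 0.29) and Slc4a1 0.34 (SE 0.14). The mean signal of Ahsp was under the signal limit in the biopsies, at 4.74, and above it in the total tumours, at 5.57. Its difference was widest in 32D1, at 2.20, against 0.21 to 0.74 in the other tumours. Adipocyte genes averaged 0.42 (SE 0.34), with 4 of 8 above the limit. Skeletal muscle genes averaged -0.17 (SE 0.15), with 3 of 9 above the limit. Of these 9, 3 had a higher and 6 a lower mean in total tumours. Acta1 averaged -1.44 (SE 0.50), with differences of -0.50, -0.75, -2.45, -3.38 and -0.14.

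**Figure D4:**
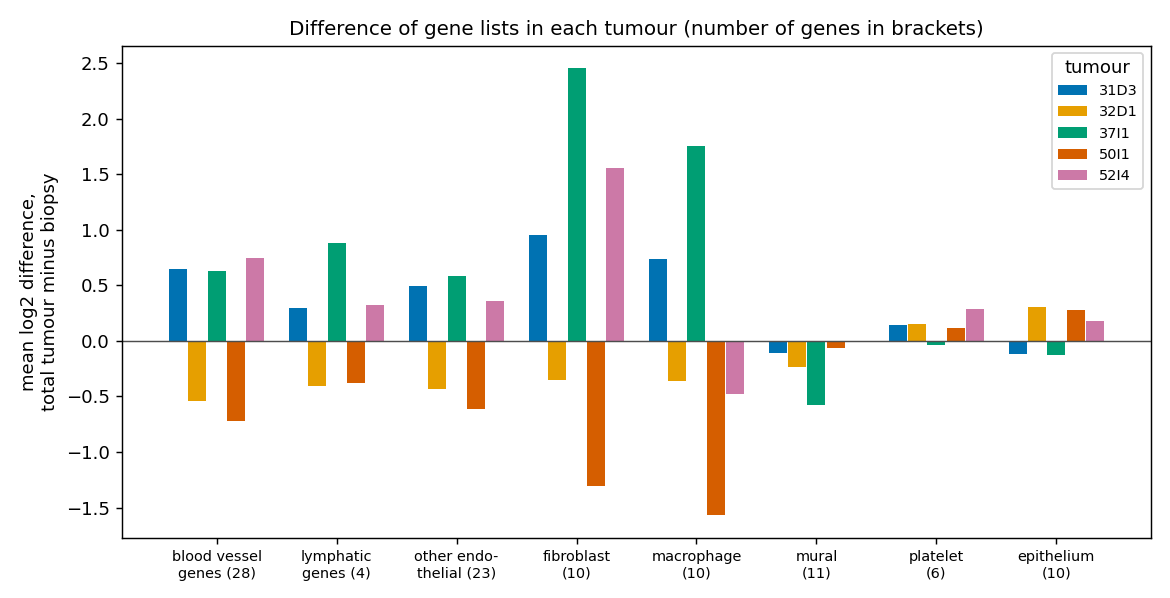
Mean log2 difference, total tumour minus biopsy, of 8 gene lists (number of genes in brackets), with a bar for each of the 5 tumours. Blood vessel, lymphatic, other endothelial and fibroblast bars point up in 31D3, 37I1 and 52I4 and down in 32D1 and 50I1, the macrophage bar of 52I4 points down, and the mural bars point down or lie at 0.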

How the data were processed

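RNA of 5 tumours, each as total tumour and as biopsy, was hybridised to 10 Affymetrix Rat Genome 230 2.0 arrays. The authors deposited log2 values summarised by RMA, per the submitters' processing notes, and the series text names GeneSpring GX 7.3. The version of RMA is not given in the sources used here. The series text describes the late sample as a needle sample and the sample labels as the total tumour, and the labels were followed. Of 31042 probe sets that are not controls, 20826 had 1 gene, 436 several and 9780 none listed. RMA shrinks differences of dim probe sets, and the number of arrays limits the precision.

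Differences were tested with limma 3.58.1 (R 4.3.3) on 18625 probe sets, with the tumour as a block because the labels give both samples of a tumour its name. Deviations of the 2 samples of a tumour correlated over 0.1 in 4 of 5 tumours (-0.21 in 50I1), as did 6 of 20 pairs of different tumours, and the total tumour of 31D3 correlated more with the biopsy of 50I1 (0.357) than with its own (0.201). The script was tested on simulated data. Members and lists were chosen with earlier results of these data known. Full values were given for members with an unadjusted p under 0.05 (with fewer than 6, the 6 smallest) and for 12 genes named in the rule, except Cdh5, which had no probe set. Cldn5, Emcn, Erg, Esm1, Sox17, Tie1 and Vcam1 were added after their values were seen. Alternatives were other filters, normalizations, probe sets, no block, the methods' t-test and leaving out each tumour.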

Additional observations from a re-analysis of the deposited data

Results flagged for a closer look

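Among 70 groups of 5 arrays, 4 held a sample far from the others by Dixon's test, where chance gives about 1 in 20. Clec14a in the biopsy of 37I1 was 5.06, below the other biopsies at 5.80 to 6.09. Vcam1 in the same biopsy was 4.26, below the others at 7.49 to 7.74. Sox18 in the total tumour of 52I4 was 7.77, above the other total tumours at 6.76 to 7.05. Flt4 in the total tumour of 31D3 was 3.96, below the others at 4.34 to 4.50, all under the signal limit.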

How the results depend on the processing

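No member or other probe set passed an adjusted p of 0.05 under any alternative, and the lowest adjusted p of a member was 0.590, with limma. Without the replicate block the count stayed at 0, and 1 member, as with it, had an unadjusted p under 0.05. The methods' t-test called 1 member and 1013 probe sets before, and 0 after, Benjamini-Hochberg adjustment. Leaving out each tumour gave 1 to 2 such members (2 without 32D1 and without 50I1), and 15 to 24 of 25 with a higher mean. Angpt2 ranged from 0.34 to 0.57. Probe sets with an unadjusted p under 0.05 numbered 2128 with no filter and 570 to 1530 with a tumour left out, the lowest without 52I4. At 1.5-fold the members past the fold were 12 higher in 31D3, 9 lower in 32D1, 13 higher in 37I1, 1 higher and 13 lower in 50I1, and 18 higher and 1 lower in 52I4, beside the shares of all genes given with these counts. The blood vessel mean ranged from 0.0016 without 52I4 to 0.37 without 50I1, that of all members from 0.01 to 0.36 and that of the lymphatic genes from -0.04 without 37I1 to 0.28 without 32D1. Means of members above the limit only, added after seeing the data, were 0.18, 0.18 and 0.19. The sign of 9 of 25 members held throughout, a count given without the share over all genes. Another setting turned 4: Flt1 to -0.11 with the mean of its probe sets, Sox17 to 0.0008 with medians subtracted, Vcam1 to 0.0148 with quantile normalization, and Prox1 to 0.0192 with medians subtracted and 0.0132 with quantile normalization. Leaving out a tumour turned 16, and Vegfa, over the ranges Icam2 -0.0698 to 0.45, Plvap -0.0156 to 0.52, Ptprb -0.22 to 0.33, Vwf -0.13 to 0.21, Ramp2 -0.14 to 0.28, Sox17 -0.35 to 0.37, Sox18 -0.0222 to 0.41, Erg -0.0518 to 0.38, Kdr -0.14 to 0.30, Flt1 -0.22 to 0.32, Tek -0.43 to 0.21, Tie1 -0.38 to 0.21, Esm1 -0.35 to 0.69, Vcam1 -0.79 to 0.61, Lyve1 -0.22 to 1.03, Prox1 -0.11 to 0.0409 and Vegfa -0.39 to 0.26. The cause was not tested. Signal near background limits the 7 dim members.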
